A study of Mus musculus with 24 samples.

Results

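The endoplasmic reticulum (ER) folding and unfolded protein response module was followed in cells of the mouse intestine that did or did not carry a reporter for guanylin, the peptide encoded by Guca2a. Its 58 members, of the 53465 genes in the table of counts, were chosen by name for their role in moving new proteins into the ER, folding them there, clearing those that misfold and carrying the rest towards the Golgi. They fall into 7 roles: 12 chaperones, 7 genes of disulfide formation, 9 of ER-associated degradation (ERAD), 9 of the unfolded protein response (UPR), 9 of the translocon, 5 of the signal peptidase complex and 7 of transport between the ER and the Golgi. The rule used names and no threshold on a measured value. Of the 58 members, 57 passed the filter on low counts. The exception was Derl3, an ERAD gene, with 1, 1 and 9 reads in the duodenum positive libraries, 1, 1 and 0 in the jejunum positive libraries, 2 in a single colon negative library and 0 in the others.

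Secreted and membrane proteins enter the ER through the Sec61 channel, lose their signal peptide, and are folded by chaperones and by enzymes that form disulfide bonds. When unfolded protein accumulates, the sensors IRE1, PERK and ATF6 start the UPR, which slows translation through PERK and raises chaperone, degradation and transport genes through the transcription factors XBP1, ATF4 and ATF6. Goblet and Paneth cells, the mucus- and antimicrobial-secreting cells of the gut epithelium, are known for a heavily developed ER and for their dependence on Xbp1, and the epithelium has an IRE1 of its own, encoded by Ern2.

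RNA was sequenced from epithelial cells of Guca2a-Venus mice, in which a bacterial artificial chromosome expressed the fluorescent protein Venus from the Guca2a promoter in place of the guanylin coding sequence. Cells that were GFP positive or GFP negative, the channel in which Venus is read, were sorted from 4 regions: the duodenum (top of the small intestine), the jejunum (its middle), the ileum (its bottom) and the colon with the rectum. Dead cells, debris and CD45-positive immune cells were gated out, and each of the 8 groups had 3 libraries, all from mice of the same strain on standard chow with a regular light cycle. The line came from 1 founder and had been backcrossed to C57Bl6J to varying degree, and 3 mice were used according to the design. The labels give neither age nor sex, and they do not name the mouse, so libraries are numbered in accession order only and p-values measure the spread between these samples. The model rests on the transgene's promoter, so a positive cell is one in which the transgene was active, whatever its type.

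Reads on genes ranged from 7458616 to 23063124 per library, of which 2583422 to 7434139 lay outside the mitochondrial genome, whose own share was 32.3 to 80.7%. That share moved with the sort in the small intestine: it was 36.7, 46.6 and 32.3% in duodenal positive libraries against 72.4, 76.4 and 64.6% in negative ones, 50.05, 60.6 and 47.1% against 78.8, 76.9 and 61.2% for the jejunum, and 53.5, 55.4 and 41.0% against 64.7, 70.9 and 65.6% for the ileum. In the colon it was 68.6 to 77.9% against 65.3 to 80.7%, and its part in the results was not tested. Guca2a, which checks the sort, averaged 285 CPM (counts relative to the normalised library size) in duodenal positive cells against 5.28 in negative ones, and the pairs were 153 and 24.5 for jejunum, 191 and 26.2 for ileum and 612 and 94.8 for colon. The epithelial marker Epcam averaged 294 to 1199 CPM over the 8 groups and Ptprc, which encodes CD45, no more than 1.96. All 7 goblet cell markers were higher in positive cells of all 4 regions, and their summed level was 56190 CPM against 335 (duodenum), 3485 against 316 (jejunum), 6561 against 294 (ileum) and 3216 against 965 (colon). All 6 Paneth cell markers were higher in the 3 small intestinal regions and none in the colon. Jejunal positive cells had the largest summed level of 6 enterocyte markers among the groups (11360 CPM), and summed proliferation markers were 131 CPM there against 1915 in jejunum negative cells. Enteroendocrine markers, of another secretory type, summed to 33.4 CPM in duodenal positive cells against 1169 in negative ones and to 40.0 against 1086 for the jejunum, with all 6 lower in both. The part of this difference in cell makeup in the results below was not tested. In sorted bulk samples, fewer cells of a type and less RNA per cell cannot be told apart.

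Levels are given as CPM after TMM normalisation of the library sizes, which sets a common scale from genes outside the extremes. Fold changes are log2 values of positive over negative cells with their standard error (±), from 3 against 3 libraries, and each adjusted p comes from edgeR's quasi-likelihood test over all 15044 genes tested, called at 0.05. In the duodenum 23 of the 57 members tested were higher in positive cells, 40.4% of them beside 8.88% of all genes, and 0 were lower beside 8.08% (0 at an unadjusted p under 0.05 and 0 with DESeq2). In the jejunum 13 members were higher, beside 18.3% of all genes, and 15 were lower, beside 25.6%, so both counts were near those shares. In the ileum 20 were higher, beside 17.9% of all genes, and 2 lower, beside 20.6%. In the colon 9 were higher, beside 9.31% of all genes, and 0 lower, beside 3.8% (1 at an unadjusted p under 0.05 and 0 with DESeq2). Single libraries decided some of these counts: 7 members were lower in the jejunum without positive library 2, 12 were higher in the ileum without positive library 3, and 3 were higher in the colon without positive library 2. In the ileum 0 were lower without positive library 2 or 3 or negative library 2. The median fold change of the members was 0.78, 0.04, 0.44 and 0.34 from duodenum to colon, where the medians of all genes were -0.16, -0.28, -0.27 and 0.00. Across the 4 regions together, 38 members differed by sort in a joint test (66.7%), beside 53.7% of all genes.

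The same 6 members were higher in positive cells of all 4 regions: the ERAD genes Edem1 and Edem3, the stress kinase gene Eif2ak3, and the transport genes Kdelr3, Sec24d and Sec31a. A further 6 were higher in 3 regions (Dnajc3, Sel1l, Syvn1, Atf4, Ddit3 and Kdelr2), 6 in 2 regions (Ero1l, Herpud1, Ern2, Xbp1, Trib3 and Sec62) and 11 in 1 region. The 16 members that were lower somewhere were chaperones (Hsp90b1, Canx, Manf), protein disulfide isomerases (Pdia4, Pdia6) and the genes for entry into the ER (Sec61b, Sec61g, Ssr1, Ssr2, Ssr3, Ssr4) and for signal peptide removal (Spcs1, Spcs2, Spcs3, Sec11a, Sec11c). Of these, 14 were lower in the jejunum alone, Ssr1 in the jejunum and the ileum, and Sec61g in the ileum alone. No member was higher in one region and lower in another. Shares of all genes with these patterns over regions are not given, so the counts describe the members only. The 12 members called in no region after TMM were Hspa5, Calr, Sdf2l1, Hyou1, Pdia3, P4hb, Ero1lb, Derl1, Derl2, Sec63, Kdelr1 and Tmed10.

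**Figure D1:**
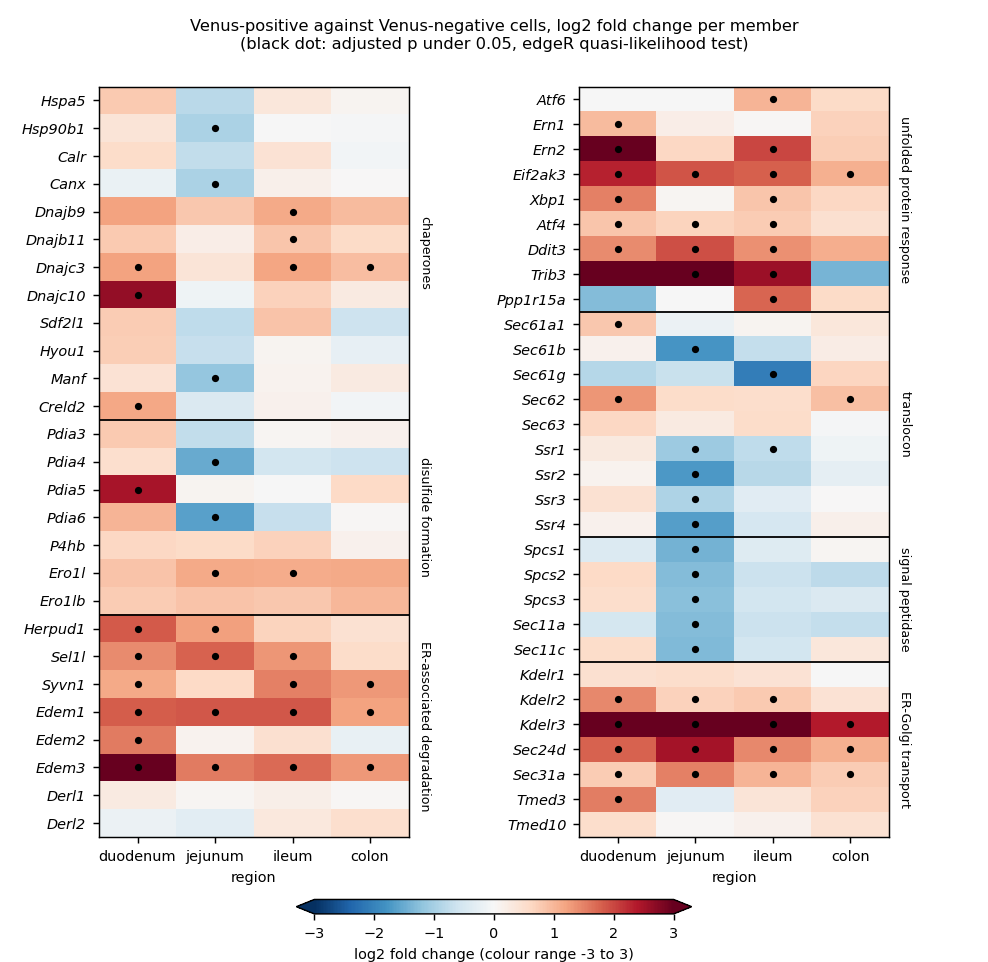
Fold change (log2, positive over negative cells) of each tested member, in rows grouped by role, in each of the 4 regions, in columns; red is higher and blue lower in positive cells, the colours end at 3 and -3, and a black dot marks an adjusted p under 0.05. The rows of ERAD, UPR and transport are mostly red in all columns, and those of the translocon and signal peptidase are mostly blue in the jejunum. There 10 of those 14 members were lower after TMM, beside 25.6% of all genes.

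The UPR genes that were called were higher in positive cells: 6, 4, 8 and 1 of 9 from duodenum to colon, with 0 lower in each (0 also at an unadjusted p under 0.05 and with DESeq2). These are 66.7, 44.4, 88.9 and 11.1% of the role, beside 8.88, 18.3, 17.9 and 9.31% of all genes, so the colon count is near that of all genes, and DESeq2 called 0 higher there. Scaled by total counts outside the mitochondrial genome (total nuclear counts), 3, 3, 2 and 0 of the 9 were higher. Of 15168 genes, 536, 1598, 1370 and 996 were higher on that scale. Ppp1r15a was lower in the duodenum with it. After TMM the median fold changes of the 9 were 1.42, 0.63, 1.38 and 0.61. The summed level of the 9 genes was 334 CPM in positive against 126 in negative cells of the duodenum and 194 against 132 in the jejunum.

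Ern2, which encodes the IRE1 of mucus-secreting epithelium, had one of the 2 largest fold changes of the members, beside Kdelr3 (5.25 ± 0.84, duodenum), from which it did not differ beyond the standard errors. Duodenal Ern2 was at 91.9, 73.3 and 49.9 CPM in the positive libraries and at 1.33, 1.36 and 2.67 in the negative ones, a fold change of 5.32 ± 0.54 (adjusted p = 2.592e-08). In the jejunum the positive libraries held 3.96, 2.06 and 3.65 CPM and the negative ones 2.43, 3.35 and 0.484 (0.63 ± 0.49, adjusted p = 0.315). The groups were far apart in the duodenum and overlapped in the jejunum, where positive cells were near the level of negative cells. Ileal Ern2 was at 18.9, 5.41 and 5.08 CPM against 2.60, 2.82 and 1.88, a fold change of 2.01 ± 0.47 (adjusted p = 0.0012). The first positive library stood well above the other two, and without it the fold change was 1.09 and the call was lost (adjusted p = 0.0567). Colonic Ern2 was at 25.7, 19.0 and 23.0 CPM against 16.2, 14.8 and 9.95 (0.73 ± 0.45, adjusted p = 0.316), without overlap. Colon negative cells thus held more Ern2 than negative cells of the small intestine, and Ern2 was among the 5 members that differed between regions in negative cells (adjusted p = 1.161e-05).

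Ern1, the IRE1 gene of most tissues, moved less. Its CPM in the duodenum were 31.8, 21.3 and 22.2 in positive and 10.1, 16.7 and 11.8 in negative cells (0.96 ± 0.32, adjusted p = 0.0362), and the call was lost when any of 3 of the 6 duodenum libraries was left out in turn. The groups did not overlap there. Jejunal Ern1 was at 18.7, 16.4 and 15.7 CPM against 15.9, 19.5 and 8.83 (0.20 ± 0.32, adjusted p = 0.642), and ileal levels were 18.8, 15 and 13.8 against 22.2, 14.0 and 9.92 (0.04 ± 0.32, adjusted p = 0.937). Both pairs of groups overlapped. In the colon the values were 16.5, 24.7 and 16.3 against 11, 14.3 and 10.1 CPM (0.70 ± 0.32, adjusted p = 0.156).

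Xbp1 encodes the transcription factor that IRE1 activates by splicing its mRNA; the counts do not separate spliced from unspliced transcripts. Duodenal Xbp1 was at 104, 123 and 127 CPM in positive and 31.5, 53.1 and 39.9 in negative cells, a fold change of 1.51 ± 0.28 (adjusted p = 0.000378). In the jejunum the values were 33.0, 47.4 and 54.5 against 27.2, 39.0 and 62.8 (0.06 ± 0.28, adjusted p = 0.877). Duodenum positive libraries all stood above every other library of either sort, while the jejunum groups overlapped. Ileal Xbp1 was at 58.4, 60.4 and 56.0 against 23.8, 37.4 and 36.2 CPM (0.84 ± 0.28, adjusted p = 0.017), and colonic levels were 42.1, 46.4 and 42.3 against 27.6, 29.4 and 28.8 (0.61 ± 0.28, adjusted p = 0.156). Neither pair overlapped, and the ileum call was lost in 2 of the 6 fits that left out 1 ileum library.

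Eif2ak3, Atf4 and Ddit3, of the PERK arm, were called higher in 4, 3 and 3 regions. Ppp1r15a, which restores the translation that PERK slows, was called higher in the ileum alone. It was at -1.30 in the duodenum and -0.01 in the jejunum. Shares of all genes called in as many regions are not given. Eif2ak3, which encodes PERK, was higher by 2.32, 1.89, 1.80 and 1.07 from duodenum to colon (adjusted p = 3.904e-05, 8.95e-05, 0.000178 and 0.0448), the colon call being lost in 4 of 6 fits that left out a library. Atf4, whose mRNA is translated when PERK slows other translation, was at 68.7, 52.5 and 60.3 CPM in duodenal positive cells and 24.6, 45.3 and 31.9 in negative ones (0.83 ± 0.25, adjusted p = 0.0217). Jejunal Atf4 was at 64.7, 53.5 and 49.2 against 33.3, 37.4 and 34.2 CPM (0.67 ± 0.25, adjusted p = 0.0302). Positive libraries lay above negative ones in both regions by similar margins. Ileal Atf4 was at 46.9, 45.8 and 50.4 against 24.3, 33.6 and 26.2 (0.77 ± 0.25, adjusted p = 0.0167), and colonic levels were 39.6, 32.4 and 39.0 against 29.4, 19.4 and 31.1 (0.48 ± 0.25, adjusted p = 0.231). The groups did not overlap in any region, though the colon difference was not called and each of the other calls was lost in 3 of the 6 fits that left out a library of its region.

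Ddit3 encodes CHOP, a transcription factor that ATF4 raises. Duodenal Ddit3 was at 3.89, 3.53 and 4.61 CPM in positive and 1.68, 1.62 and 1.15 in negative cells (1.42 ± 0.46, adjusted p = 0.0302), a call lost in 5 of 6 fits that left out a library. Jejunal Ddit3 was at 15.3, 11.4 and 9.19 against 2.28, 4.37 and 2.66 CPM (1.94 ± 0.44, adjusted p = 0.000664). Jejunum positive cells thus held the highest Ddit3 levels of the 24 libraries. Ileal Ddit3 was at 5.01, 3.12 and 5.81 against 1.77, 2.54 and 0.998 (1.38 ± 0.44, adjusted p = 0.0141), and colonic levels were 2.94, 6.37 and 4.71 against 1.56, 2.56 and 2.38 (1.10 ± 0.45, adjusted p = 0.107). Again the groups did not overlap in any region, and the ileum call was lost in 2 of 6 fits. Ddit3 shares positions with Mars on the opposite strand, and whether the counting used strand is not given in the sources used here. Of 7 immediate early and heat shock genes tested, which respond to handling, 3 were higher in jejunal positive cells, beside 18.3% of all genes. In the ileum 4 were higher, beside 17.9%, and 1 was lower, beside 20.6%. In the duodenum and the colon 0 were called (0 and 1 at an unadjusted p under 0.05). The part of these genes in the Ddit3 result was not tested.

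Of the remaining UPR genes, Trib3, a target of CHOP, was higher in the jejunum (3.37, adjusted p = 0.00702) and the ileum (2.57, adjusted p = 0.0369), with 3.06 in the duodenum (adjusted p = 0.061) and -1.39 in the colon. Atf6, which encodes the sensor ATF6, was higher in the ileum alone (1.01, adjusted p = 0.00241) and at -0.02 and -0.01 in the duodenum and jejunum. Ppp1r15a, which restores translation after stress, was higher in the ileum (1.74, adjusted p = 0.0434), a call lost in 4 of 6 fits that left out a library, and was at -1.30 in the duodenum.

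**Figure D2:**
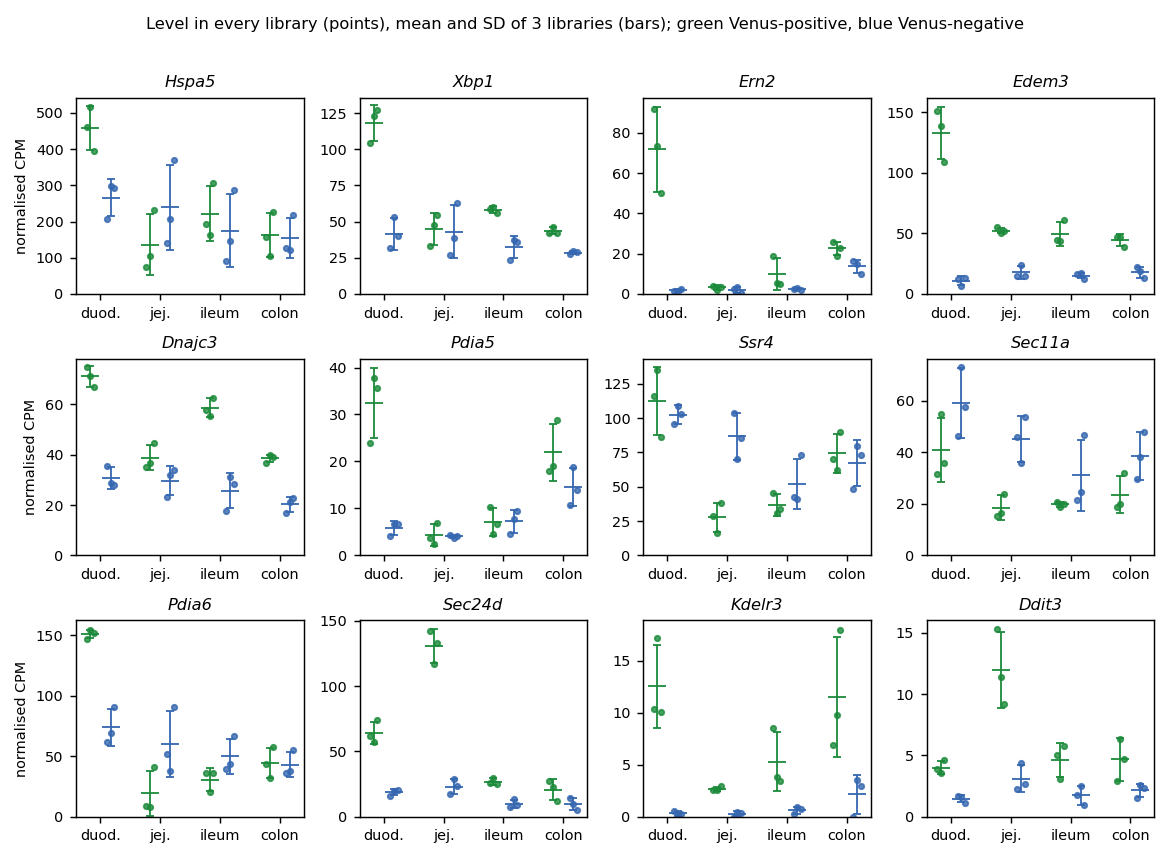
Normalised CPM of 12 members in each library, by region, with green points for positive and blue points for negative libraries and the mean and SD of the 3 libraries of a group. Ern2, Pdia5 and Edem3 have their highest mean in duodenum positive cells, where Pdia5 overlaps the colon positive libraries. Ssr4, Sec11a and Pdia6 have their lowest mean in jejunum positive cells, where each overlaps the ileum positive libraries. Ddit3 peaks in jejunum positive cells at 9.19 to 15.3 CPM.

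Among the chaperones, 3 of 12 were higher in the duodenum (Dnajc3, Dnajc10 and Creld2), 3 in the ileum (Dnajc3, Dnajb9 and Dnajb11) and 1 in the colon (Dnajc3), while 3 were lower in the jejunum (Hsp90b1, Canx and Manf). These 3 of 12 are 25%, near the 25.6% of all genes lower in the jejunum and the 17.9% higher in the ileum. After TMM the counts in these regions thus do not set the chaperones apart. With total nuclear counts 7 of 12 were lower in the jejunum, beside 5113 of 15168 genes. With library size alone 1 was lower there, beside 2943 of 15044 genes. After TMM, 25% stood beside 8.88% of all genes in the duodenum, and 8.33% beside 9.31% in the colon. The median fold change of the 12 was 0.77, -0.73, 0.38 and 0.04 from duodenum to colon. Their summed level was 2175 ± 67.4 CPM (SD, n = 3) in positive against 1398 ± 92.8 in negative cells of the duodenum, and 810 ± 345 against 1345 ± 453 in the jejunum, where the groups overlapped. The single jejunum positive libraries summed to 544.4, 686.2 and 1200 CPM and the negative ones to 998.7, 1180 and 1857. In both jejunum groups the library numbered 3 was the highest, and it held the top level of 11 of the 12 chaperones in positive and of 12 in negative cells. In positive cells the same library had the highest summed Paneth markers (16120 CPM, against 5494 and 1541) and proliferation markers (300.1, against 57.0 and 34.6), and their part in its chaperone level was not tested.

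Hspa5 encodes BiP, the main ER chaperone, which holds the stress sensors inactive until unfolded protein draws it away. Duodenal Hspa5 was at 461, 517 and 395 CPM in positive and 208, 297 and 294 in negative cells (0.78 ± 0.42, adjusted p = 0.204). Jejunal Hspa5 was at 73.9, 104 and 232 against 141, 207 and 370 CPM (-0.81 ± 0.42, adjusted p = 0.118). Neither difference was called after TMM, although the duodenum groups did not overlap and the signs were opposite. With total nuclear counts Hspa5 was called lower in the jejunum. Ileal Hspa5 was at 193, 163 and 307 against 91.2, 147 and 286 (0.34 ± 0.42, adjusted p = 0.548), and colonic levels were 158, 105 and 226 against 126, 121 and 217 (0.08 ± 0.42, adjusted p = 0.939). Within positive cells Hspa5 differed between regions (adjusted p = 0.00315), with duodenum libraries above all others.

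Dnajc3, a cochaperone of BiP also known as p58IPK, had the smallest p of the chaperones in the joint test (adjusted p = 2.778e-06). It was at 75, 71.2 and 67 CPM in duodenal positive cells and 35.6, 28.7 and 27.8 in negative ones (1.21 ± 0.24, adjusted p = 0.000892). Jejunal Dnajc3 was at 35.1, 36.8 and 44.5 against 23.1, 32.0 and 33.8 (0.39 ± 0.24, adjusted p = 0.197). In contrast with Hspa5, the positive libraries were higher than the negative ones even in the jejunum. Ileal Dnajc3 was at 57.6, 55.4 and 62.7 against 17.7, 31.1 and 28.3 (1.19 ± 0.24, adjusted p = 0.000266), and colonic levels were 36.8, 39.8 and 38.9 against 17, 21.2 and 22.6 CPM (0.92 ± 0.24, adjusted p = 0.0108), a call lost in 2 of 6 fits that left out a library.

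Manf, a secreted stress-induced ER protein, was the chaperone gene with the smallest p among those lower. Jejunal Manf was at 25.4, 20.4 and 48.1 CPM in positive and 62.6, 65.2 and 81.5 in negative cells (-1.16 ± 0.32, adjusted p = 0.00418), without overlap, and the call was lost without the second positive library (adjusted p = 0.07). Duodenal Manf was at 107, 124 and 89.7 against 67.1, 100 and 69.1 (0.44 ± 0.32, adjusted p = 0.356). The groups there overlapped, as they did in the ileum and the colon. Ileal Manf was at 48.9, 37.7 and 51.6 against 23.6, 48.7 and 56.7 (0.10 ± 0.32, adjusted p = 0.831), and colonic levels were 47.8, 37.9 and 65.1 against 34.8, 49.1 and 40.6 (0.28 ± 0.32, adjusted p = 0.632). Manf shares positions with Dcaf1 on the opposite strand and Rbm15b on its own.

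Dnajc10, a reductase that helps unfold faulty proteins, had the largest chaperone fold change of the duodenum, 2.64 (adjusted p = 5.929e-06), with 185, 264 and 198 CPM in positive and 22.4, 39.7 and 41.8 in negative cells. Its fold change was -0.13 in the jejunum. Hsp90b1, which encodes the ER chaperone GRP94, was lower in the jejunum (-0.95, adjusted p = 0.00869), as was Canx, the membrane-bound lectin chaperone calnexin (-0.95, adjusted p = 0.0148). Calr, its soluble counterpart calreticulin, was at -0.75 in the jejunum with an adjusted p of 0.0505. Dnajb9, a BiP cochaperone, was higher in the ileum (1.14, adjusted p = 0.0404), and so was Dnajb11 (0.84, adjusted p = 0.0342). Creld2, an ER stress-induced gene, was higher in the duodenum (1.15, adjusted p = 0.0497), a call lost with any of the 6 libraries left out. Sdf2l1, a BiP partner, and Hyou1, which exchanges nucleotide on BiP, were called nowhere after TMM, with fold changes of -0.76 to 0.85 and -0.70 to 0.74. Both were lower in the jejunum with total nuclear counts.

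The stretch before the start site of 48 of the 58 genes was searched for 5 short elements to which UPR factors are known to bind, since chaperone genes are known to respond to the UPR through such elements. Windows ran from 250 bases before to 50 after the start, from RefSeq on GRCm38.p6, and both strands were searched. The ER stress element (ERSE: CCAAT, any 9 bases, CCACG) was present in a window of 10 of 48 members (20.8%), against 37 of the 27025 genes with a window (0.137%). A gene with several windows counts once. The elements were chosen because chaperone genes are known to respond through them, so the higher share in members is not a separate result. The 10 were Hspa5, Hsp90b1 (2 matches), Calr, Canx, Dnajc3, Creld2, Pdia6, Ero1lb, Syvn1 and Derl3, so 6 of the 10 chaperones with a window held it. By call, it was in 3 of 25 members with a window that were higher in some region (12%), in 3 of 12 of members lower in some region (25%) and in 3 of 10 of members called nowhere (30%). The ERSE thus lay in genes that were higher, lower and not called. CCACG alone was in 77.1% of those members and 35.5% of all genes with a window, and it is contained in the ERSE. A match is a description of these letters, not of binding. Hyou1, Manf, Derl1, Atf6, Ern2, Sec61a1, Ssr2, Spcs3, Sec11c and Kdelr2 had no window in the table.

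The 250 bases before the start of Hspa5, Dnajc3 and Pdia6 are shown because each carries an ERSE, in capitals, while their fold changes in the jejunum ran from -1.64 to 0.39. They lie on the + strand at chr2:34771840-34772089, chr14:118937682-118937931 and chr12:17266339-17266588 (GRCm38.p6), and the element lies 65 to 47, 105 to 87 and 98 to 80 bases before the start.
Hspa5: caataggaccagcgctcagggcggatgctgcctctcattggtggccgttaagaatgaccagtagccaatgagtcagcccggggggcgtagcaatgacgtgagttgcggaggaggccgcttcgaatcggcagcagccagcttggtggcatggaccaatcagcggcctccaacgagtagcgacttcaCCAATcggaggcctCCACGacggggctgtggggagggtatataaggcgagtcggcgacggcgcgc
Dnajc3: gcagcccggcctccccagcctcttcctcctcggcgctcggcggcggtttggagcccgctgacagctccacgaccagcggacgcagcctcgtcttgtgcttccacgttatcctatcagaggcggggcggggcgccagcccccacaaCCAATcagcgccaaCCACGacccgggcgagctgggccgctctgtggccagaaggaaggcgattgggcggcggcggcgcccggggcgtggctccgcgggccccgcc
Pdia6: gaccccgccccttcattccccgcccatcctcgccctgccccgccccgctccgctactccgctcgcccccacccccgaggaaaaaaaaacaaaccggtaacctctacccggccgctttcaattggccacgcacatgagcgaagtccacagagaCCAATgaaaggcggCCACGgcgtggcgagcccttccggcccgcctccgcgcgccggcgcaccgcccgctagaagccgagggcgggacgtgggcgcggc

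Of the 7 disulfide genes, 1 was higher in the duodenum (Pdia5), in the jejunum 1 was higher (Ero1l) and 2 lower (Pdia4 and Pdia6), 1 was higher in the ileum (Ero1l) and 0 in the colon with edgeR (1 at an unadjusted p under 0.05 and 0 with DESeq2). Beside the 25.6% of all genes lower in the jejunum and the 17.9% higher in the ileum, these counts of 7 do not set the role apart. Pdia5, a protein disulfide isomerase known to activate ATF6, was at 23.9, 37.8 and 35.6 CPM in duodenal positive cells and 4.21, 6.68 and 6.63 in negative ones (2.47 ± 0.39, adjusted p = 3.538e-05). Jejunal Pdia5 was at 3.64, 2.34 and 7 against 4.25, 3.67 and 4.17 (0.09 ± 0.39, adjusted p = 0.869). Every duodenum positive library stood above every negative one, and the jejunum groups overlapped. Ileal Pdia5 was at 10.3, 4.45 and 6.77 against 4.54, 7.65 and 9.53 (-0.01 ± 0.37, adjusted p = 0.988), and colonic levels were 17.9, 19.1 and 28.9 against 10.7, 18.8 and 14.0 (0.60 ± 0.37, adjusted p = 0.316). Both pairs overlapped. Negative cells of the colon were above those of the small intestine, and Pdia5 differed between regions in negative cells (adjusted p = 0.00331).

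Pdia6, which restrains IRE1 and forms disulfides, went the other way. Jejunal Pdia6 was at 9.08, 8.42 and 40.8 CPM in positive and 52.1, 37.9 and 91 in negative cells (-1.64 ± 0.43, adjusted p = 0.00247). The third positive library stood far above the other two and reached into the range of the negative libraries. Duodenal Pdia6 was at 147, 154 and 152 against 61.7, 69.2 and 91 CPM (1.03 ± 0.42, adjusted p = 0.0864), without overlap. Ileal Pdia6 was at 36.3, 20.1 and 35.8 against 39.7, 43.7 and 66.4 (-0.70 ± 0.42, adjusted p = 0.188), and colonic levels were 43.5, 32.1 and 57.4 against 36.3, 37.9 and 54.8 (0.04 ± 0.42, adjusted p = 0.967). Positive libraries were the lower ones in the ileum and were mixed with the negative ones in the colon. Pdia6 shares positions with Atp6v1c2 on the opposite strand.

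Pdia4, another isomerase, was lower in the jejunum (-1.52, adjusted p = 0.00429). Ero1l, the oxidase that recharges the isomerases, was higher in the jejunum (1.13, adjusted p = 0.023) and the ileum (1.11, adjusted p = 0.0299), with 0.85 in the duodenum and 1.14 in the colon (adjusted p = 0.0684). Each of these calls was lost in 4 of 6 fits that left out a library. Ero1lb, a relative of Ero1l, was at 0.76 to 0.99 in the 4 regions and was not called. P4hb, a further isomerase gene, was called nowhere after TMM (0.13 to 0.69), nor was Pdia3, which works with calnexin and calreticulin (-0.75 to 0.79). With total nuclear counts Pdia3 was lower in the jejunum. Per exon length, P4hb had the highest level of the members in 7 of the 8 groups, with 395 ± 45.0 RPKM (SD, n = 3) in duodenum positive and 256 in duodenum negative cells. Calr came next in positive cells, at 214 RPKM in the duodenum and 72.7 in the jejunum. In colon negative cells Calr was at 114 ± 26.6 RPKM and P4hb at 106 ± 39.1, within their spread.

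The ERAD genes that were called were likewise higher in positive cells: 6, 4, 4 and 3 of the 8 tested from duodenum to colon, with 0 lower in each (0 also at an unadjusted p under 0.05 and with DESeq2). These are 75, 50, 50 and 37.5% of the role, beside 8.88, 18.3, 17.9 and 9.31% of all genes. With total nuclear counts 4, 3, 3 and 2 were higher, and Derl2 was lower in the duodenum and the jejunum. After TMM the median fold changes of the ERAD genes were 1.49, 0.91, 0.99 and 0.53. Their summed level was 410 CPM against 125 in the duodenum, 296 against 128 in the jejunum, 276 against 116 in the ileum and 181 against 108 in the colon. Edem3 belongs to a family of mannosidase-like proteins that mark misfolded glycoproteins for degradation. It was at 151, 139 and 109 CPM in duodenal positive cells and 12.5, 7 and 13.6 in negative ones (3.59 ± 0.30, adjusted p = 6.557e-10). Jejunal Edem3 was at 54.9, 50.6 and 51.6 against 14.9, 24.2 and 14.6 (1.55 ± 0.28, adjusted p = 5.215e-05). Every duodenum positive library stood above every library of the other groups. Ileal Edem3 was at 44.7, 43.6 and 61.2 against 16.1, 17 and 12.5 (1.71 ± 0.28, adjusted p = 1.973e-05), and colonic levels were 46.8, 47.4 and 38.5 against 21.9, 18.8 and 12.8 (1.31 ± 0.28, adjusted p = 0.00188). No region showed overlap.

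Its relative Edem1 was higher by 1.82, 1.86, 1.86 and 1.21 from duodenum to colon (adjusted p = 4.619e-05, 7.885e-06, 9.383e-06 and 0.00473). The duodenum exceeded the jejunum in the fold change of Edem3 and not, at the threshold, in that of Edem1. Edem2 was higher in the duodenum alone (1.57, adjusted p = 0.00199) and was at -0.23 to 0.47 elsewhere. Sel1l and Syvn1 encode the membrane adaptor and the ubiquitin ligase of the ERAD complex. Sel1l was higher in the duodenum, jejunum and ileum by 1.41, 1.78 and 1.33 (adjusted p = 8.987e-05, 9.684e-07 and 4.905e-05), and Syvn1 in the duodenum, ileum and colon by 1.13, 1.52 and 1.30 (adjusted p = 0.0416, 0.00225 and 0.0261). The duodenum call of Syvn1 was lost with any of the 6 libraries left out. Herpud1, which organises that complex, was higher in the duodenum (1.83, adjusted p = 0.000168) and the jejunum (1.23, adjusted p = 0.0024). Derl1 and Derl2, which form the channel out of the ER, were called nowhere after TMM and lay between -0.31 and 0.50.

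Herpud1 carried a shorter form of the stress element, ERSE-II (ATTGG, any base, CCACG), which was in the windows of 2 of 48 members, Dnajb11 and Herpud1 (4.17%), and of 0.0444% of all genes with a window. Its sequence is given because it is the ERAD gene with such an element that was higher in the jejunum. It lies at chr8:94386179-94386428 on the + strand, and the element, in capitals, lies 52 to 42 bases before the start.
Herpud1: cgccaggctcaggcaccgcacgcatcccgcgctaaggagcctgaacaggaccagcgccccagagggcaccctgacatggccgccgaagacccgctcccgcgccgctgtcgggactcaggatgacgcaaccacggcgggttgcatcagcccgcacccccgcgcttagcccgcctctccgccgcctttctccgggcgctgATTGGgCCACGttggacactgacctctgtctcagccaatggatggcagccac

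Of the 9 translocon genes, 2 were higher in the duodenum (Sec61a1 and Sec62) and 1 in the colon (Sec62), while 5 were lower in the jejunum (Sec61b and Ssr1 to Ssr4) and 2 in the ileum (Sec61g and Ssr1). The 5 are 55.6% of the role beside 25.6% of all genes, while the 2 are 22.2% beside 20.6%, and the 1 in the colon is 11.1% beside 9.31%. Their median fold changes were 0.29, -0.92, -0.50 and 0.15, and they summed to 258 CPM in positive against 464 in negative cells of the jejunum. Sec62, a channel partner that also takes part in recovery from ER stress, was at 55.4, 32.6 and 39.7 CPM against 13.9, 12.9 and 23.9 in the duodenum (1.33 ± 0.28, adjusted p = 0.00134). Jejunal Sec62 was at 24.9, 19.4 and 26.9 against 18.1, 15 and 15.8 (0.54 ± 0.28, adjusted p = 0.113). Positive libraries were the higher ones in both regions. Ileal Sec62 was at 24.8, 20.4 and 28.5 against 19.2, 17.4 and 14.5 (0.52 ± 0.27, adjusted p = 0.133), and colonic levels were 32.3, 20.2 and 24.3 against 13.8, 15.3 and 11.7 (0.91 ± 0.28, adjusted p = 0.028). The groups did not overlap there either, and the colon call was lost in 4 of 6 fits that left out a library.

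Ssr4 encodes a subunit of the TRAP complex, which assists the channel. Jejunal Ssr4 was at 28.4, 16.6 and 38.1 CPM in positive and 104, 70.3 and 85.8 in negative cells (-1.65 ± 0.31, adjusted p = 7.397e-05). Duodenal Ssr4 was at 116, 135 and 86.2 against 95.7, 109 and 103 (0.13 ± 0.30, adjusted p = 0.806). The highest jejunum positive library was below the lowest negative one, whereas the duodenum groups overlapped. Ileal Ssr4 was at 45.5, 30.6 and 33.9 against 42.2, 41.1 and 72.9 (-0.50 ± 0.30, adjusted p = 0.188), and colonic levels were 70.5, 62.4 and 90.0 against 48.3, 80.0 and 73.0 (0.15 ± 0.30, adjusted p = 0.811). The other TRAP subunits Ssr1, Ssr2 and Ssr3 were lower in the jejunum, at -1.09, -1.73 and -0.92 (adjusted p = 0.0013, 0.000477 and 0.0236), so all 4 subunits measured were lower there after TMM. The Ssr3 call was lost in 4 of 6 fits that left out a library, and it was not made under all 4 scalings. Of the 3 subunits of the channel itself, Sec61b was lower in the jejunum (-1.76, adjusted p = 0.000276), Sec61g in the ileum (-2.08, adjusted p = 0.0256, on 6 to 8 reads in the positive and 13 to 93 in the negative libraries), and Sec61a1, the pore, was higher in the duodenum (0.80, adjusted p = 0.0459). Sec63 was at -0.03 to 0.63 and was called nowhere. Sec61g shares 20.5% of its 50-base words with other annotated genes, Sec61b 15.3%, Sec61a1 14.6%, Ero1lb 13.9% and Sec62 11.8%, so their counts are less certain. Sec62, Ssr2, Sec11a, Spcs1, Spcs2, Spcs3, Syvn1, Herpud1, Kdelr3 and Ppp1r15a share positions with a gene on the opposite strand, as Manf, Pdia6 and Ddit3 do, and so do Hsp90b1, Dnajb9, Pdia3, Derl2, Sec61a1, Sec63, Kdelr1, Tmed10 and Eif2ak3, of which Eif2ak3 also shares 7.64% of its words with Gm43292.

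The signal peptidase complex cuts the signal peptide from proteins as they enter. All 5 of its genes were lower in positive cells of the jejunum, and 0 were called in the duodenum (0 at an unadjusted p under 0.05), the ileum (1 lower) and the colon (1 lower), nor was any with DESeq2 in those regions. Of all genes, 25.6% were lower in the jejunum, and 8.08, 20.6 and 3.8% in the duodenum, ileum and colon. With total nuclear counts, however, all 5 were lower in the ileum, and Spcs1 and Sec11a in the duodenum. Of 15168 genes, 5106 were lower in the ileum and 3912 in the duodenum on that scale. After TMM the median fold changes of the 5 genes were 0.52, -1.30, -0.56 and -0.43. Their summed level in the jejunum was 89.4 CPM in positive against 220 in negative cells. Sec11a, a catalytic subunit, was at 15.1, 16.6 and 23.9 CPM against 46.0, 35.8 and 53.7 in the jejunum (-1.29 ± 0.31, adjusted p = 0.00124). Duodenal Sec11a was at 31.5, 54.8 and 35.9 against 46.2, 73.2 and 57.6 (-0.53 ± 0.31, adjusted p = 0.238). The jejunal groups did not overlap and the duodenal groups did. Ileal Sec11a was at 20.6, 18.8 and 20.1 against 21.6, 24.7 and 46.8 (-0.65 ± 0.31, adjusted p = 0.097), and colonic levels were 18.9, 19.9 and 32.0 against 29.6, 38.3 and 48.0 (-0.71 ± 0.31, adjusted p = 0.13). The second catalytic subunit, Sec11c, was lower in the jejunum, at -1.32 (adjusted p = 0.00528), as were the accessory subunits Spcs1, Spcs2 and Spcs3, at -1.42, -1.30 and -1.25 (adjusted p = 0.00142, 0.0158 and 0.0161). The Spcs2 and Spcs3 calls were each lost in 3 of 6 fits that left out a library. With library size alone, 3 of the 5 genes were lower in the jejunum.

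All calls among transport genes were also higher: 5, 4, 4 and 3 of 7 from duodenum to colon, with 0 lower in each (0 also at an unadjusted p under 0.05 and with DESeq2), and with median fold changes of 1.43, 0.69, 0.79 and 0.68. The shares called were 71.4, 57.1, 57.1 and 42.9%, beside 8.88, 18.3, 17.9 and 9.31% of all genes. Their summed level was the only one of the 7 roles with a higher mean in positive cells of the jejunum (451 CPM) than of the duodenum (416). The libraries overlapped, at 454.6, 425.9 and 471 CPM in the jejunum against 386.3, 408.3 and 451.8 in the duodenum. Sec24d and Sec31a had the higher mean in the jejunum, and Kdelr1, Kdelr2, Kdelr3, Tmed3 and Tmed10 the lower. Sec24d encodes a cargo-binding subunit of the COPII coat, which buds vesicles from the ER. Duodenal Sec24d was at 61.5, 56.9 and 73.8 CPM in positive and 16.0, 19.6 and 20.8 in negative cells (1.77 ± 0.32, adjusted p = 0.000235). Jejunal Sec24d was at 142, 117 and 133 against 17.2, 28.8 and 23.3 (2.5 ± 0.33, adjusted p = 6.394e-07). Sec24d thus reached its highest level of all groups in jejunum positive cells. Ileal Sec24d was at 25.6, 30 and 25.3 against 7.47, 13.3 and 9.09 (1.43 ± 0.32, adjusted p = 0.00062), and colonic levels were 27.5, 22.9 and 12.0 against 14.7, 9.74 and 5.44 (1.07 ± 0.32, adjusted p = 0.0243). Only the colon groups overlapped, and that call was lost in 4 of 6 fits that left out a library.

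Sec31a, which forms the outer COPII cage, was higher in all 4 regions by 0.76, 1.5, 1.01 and 0.76 (adjusted p = 0.0272, 1.091e-05, 0.00125 and 0.0331), with the duodenum call lost in each of the 6 fits that left out a library and the colon call in 4. The KDEL receptors return escaped ER residents from the Golgi. Kdelr3 was higher in all 4 regions by 5.25, 3.23, 3.06 and 2.37 (adjusted p = 4.619e-05, 0.00198, 0.00141 and 0.0217), the colon call being lost in 2 of 6 fits that left out a library. Duodenal Kdelr3 was at 10.4, 17.2 and 10.1 CPM in positive and 0.561, 0.130 and 0.288 in negative cells, and in the jejunum at 2.56, 2.62 and 2.92 against 0, 0.450 and 0.363. It was near the floor of detection in the negative cells of the small intestine, so the size of these fold changes is imprecise. Kdelr2 was higher in the duodenum, jejunum and ileum by 1.43, 0.69 and 0.79 (adjusted p = 0.000237, 0.0276 and 0.0148), and Kdelr1 was at -0.01 to 0.52 and called nowhere. Of the cargo receptors of the p24 family, Tmed3 was higher in the duodenum (1.53, adjusted p = 0.00309) and Tmed10 was called nowhere (0.04 to 0.53).

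Kdelr3 and Sec24d were the only members with the XBP1 element TGACGTGG (UPRE) in their window, 4.17% of 48 against 0.714% of all genes with a window, and both were higher in all 4 regions, which is why they are shown. The UPRE holds CCACG on its other strand, so it overlaps the word searched above. The windows lie on the + strand at chr15:79516158-79516407 and chr3:123267246-123267495, with the element, in capitals, 30 to 23 bases before the start of Kdelr3, where it reads on the other strand, and 26 to 19 before that of Sec24d.
Kdelr3: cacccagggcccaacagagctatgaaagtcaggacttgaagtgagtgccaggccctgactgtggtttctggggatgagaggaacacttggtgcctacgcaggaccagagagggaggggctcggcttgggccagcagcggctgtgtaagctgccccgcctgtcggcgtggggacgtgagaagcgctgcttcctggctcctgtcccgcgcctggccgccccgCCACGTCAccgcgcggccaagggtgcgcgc
Sec24d: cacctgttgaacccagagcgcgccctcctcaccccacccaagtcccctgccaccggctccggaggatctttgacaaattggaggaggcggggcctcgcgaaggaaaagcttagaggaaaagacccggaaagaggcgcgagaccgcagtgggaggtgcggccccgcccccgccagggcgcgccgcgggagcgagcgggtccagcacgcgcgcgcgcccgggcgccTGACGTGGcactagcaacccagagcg
The cyclic AMP element TGACGTCA was in the window of 1 member, Ppp1r15a (2.08% against 2.03%), and TGATGNAA, a word of the ATF4 and CHOP type, in those of Herpud1, Trib3 and Kdelr1 (6.25% against 4.51%), both shares near those of all genes.

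**Figure D3:**
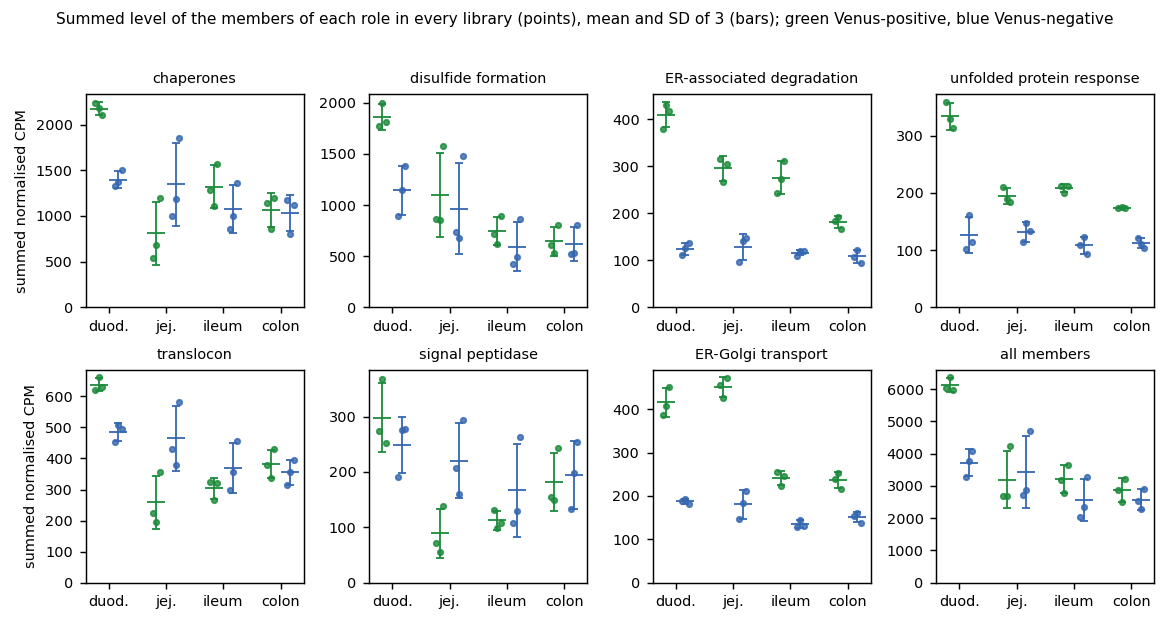
Summed CPM of the members of each role, and of all 58 members, Derl3 included (points: libraries, lines: mean and SD of 3), by region, with green for positive and blue for negative cells. All members together summed to 6130 CPM in duodenum positive against 3714 in negative cells and to 3198 against 3435 in the jejunum.

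The levels in positive cells differed along the gut. In positive cells 41 of 57 members differed between regions (71.9%), beside 43.3% of all genes, and in negative cells 5 did (8.77%), beside 12.3%. The 5 were Pdia5, P4hb, Ern2, Kdelr3 and Sec24d. By role, those that differed in positive cells were 9 of 12 chaperones, 5 of 7 disulfide genes, 5 of 8 ERAD genes, 5 of 9 UPR genes, 7 of 9 translocon genes, all 5 signal peptidase genes and 5 of 7 transport genes. Whether the sort difference was equal between regions was tested itself. It was larger on the side of the duodenum than of the jejunum for 22 members, beside 8.77% of all genes, and smaller for 0, beside 5.84% (1 at an unadjusted p under 0.05 and 1 with DESeq2). Against the ileum it was larger for 4, beside 4.58%, and smaller for 1, beside 5.92%. Against the colon it was larger for 5, beside 1.47%, and smaller for 0, beside 2.15% (0 at an unadjusted p under 0.05 and 0 with DESeq2). These 3 comparisons share the duodenum libraries.

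These 22 members were 5 chaperones, 4 disulfide genes, 2 ERAD genes, 2 UPR genes, 5 translocon genes, 3 signal peptidase genes and 1 transport gene. Ern2 had the largest, 4.69 ± 0.71 on the log2 scale (adjusted p = 8.405e-05), followed by Dnajc10 (2.77), Pdia6 (2.67), Pdia5 (2.38) and Edem3 (2.04). For Dnajc10, Pdia5, Edem3 and Ern2 it was also larger than in both the ileum and the colon, and for Edem2 than in the colon. Ppp1r15a was the member whose difference was smaller in the duodenum, by -3.04 against the ileum. The number of members called larger against the jejunum was 9 without the first or without the second jejunum positive library, 10 without the third jejunum negative library, and 14 without the second positive or the second negative library of the duodenum.

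**Figure D4:**
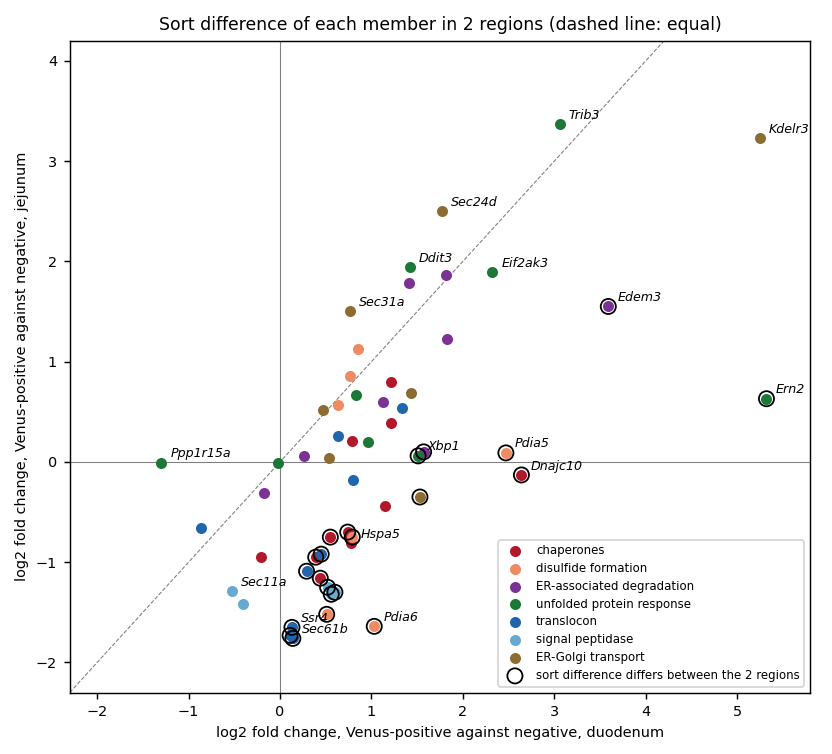
Fold change (log2, positive over negative cells) of each tested member in the duodenum (horizontal axis) and the jejunum (vertical axis), coloured by role, with circles around the members whose difference was called unequal between these regions and a dashed line where both are equal. The 5 signal peptidase genes and the 4 Ssr genes lie below 0 in the jejunum and between -0.53 and 0.60 in the duodenum, and the 22 circled members all lie below the line.

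The scale on which libraries were set side by side moved the counts. Scaling by the total of counts outside the mitochondrial genome, chosen after seeing the data, moved the median fold change of all genes by -0.65, -0.48, -0.63 and -0.08 from duodenum to colon, and scaling by library size alone moved it by 0.45 and 0.33 in the duodenum and jejunum. With the former, members higher and lower numbered 12 and 5 (duodenum), 9 and 21 (jejunum), 6 and 13 (ileum) and 3 and 0 (colon). Of 15168 genes, 536 and 3912, 1598 and 5113, 1370 and 5106, and 996 and 635 were. With library size alone members numbered 31 and 0, 14 and 10, 15 and 1, and 4 and 0. Of 15044 genes, 2267 and 350, 3338 and 2943, 2350 and 2912, and 1014 and 507 were. With the size factors of DESeq2 in edgeR members numbered 24 and 0, 13 and 15, 20 and 2, and 6 and 0. Of 15044 genes, 1418 and 1180, 3065 and 3564, 2791 and 2983, and 1202 and 715 were. The 5 members lower in the duodenum with the total of nuclear counts were Canx, Derl2, Ppp1r15a, Spcs1 and Sec11a, and in the ileum all 5 signal peptidase genes and 6 translocon genes were lower with it. In the jejunum 7 chaperones were lower with it, among them Hspa5, Calr, Sdf2l1 and Hyou1, which were not called after TMM. Pdia3 was also lower there with it, and Derl2 was the ERAD gene lower there. The genes of ERAD, UPR and transport that were higher with it numbered 4, 3 and 3 (duodenum), 3, 3 and 3 (jejunum), 3, 2 and 1 (ileum) and 2, 0 and 0 (colon). The members' own share of those counts was 1.15% in duodenal positive cells and 1.08% in negative ones, 0.692% against 1.03% for the jejunum, 0.801% against 0.971% for the ileum and 0.928% against 0.877% for the colon. On this scale the share was thus lower in positive cells of the ileum, where the summed level after TMM was higher (3209 against 2564 CPM).

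Called the same way under all 4 scalings were 12 members higher in the duodenum (Dnajc10, Pdia5, Herpud1, Sel1l, Edem1, Edem3, Ern2, Eif2ak3, Xbp1, Kdelr2, Kdelr3 and Sec24d) and 9 in the jejunum (Sel1l, Edem1, Edem3, Eif2ak3, Ddit3, Trib3, Kdelr3, Sec24d and Sec31a). In the jejunum 10 were lower under all 4 (Manf, Pdia4, Pdia6, Sec61b, Ssr1, Ssr2, Ssr4, Spcs1, Sec11a and Sec11c). In the ileum Sel1l, Edem1, Edem3, Ern2, Eif2ak3 and Kdelr3 were higher and Sec61g lower under all 4, and in the colon Edem1 and Edem3 were higher.

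**Figure D5:**
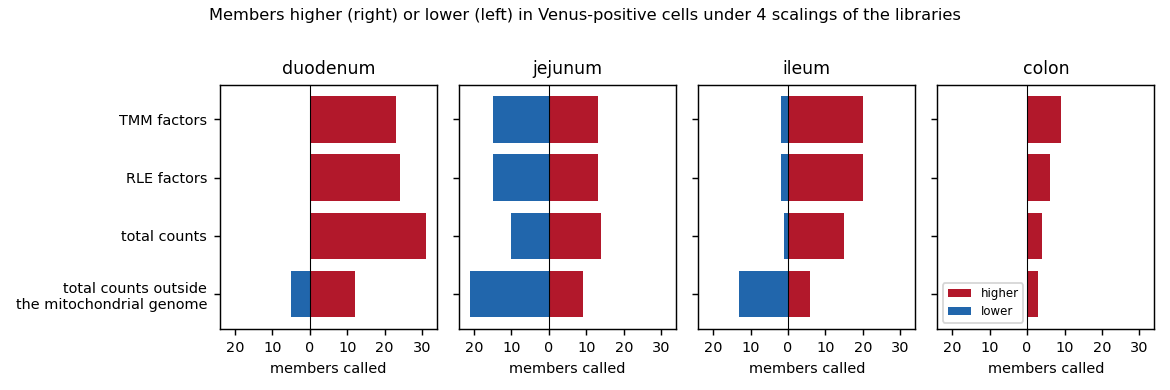
Number of tested members called higher (red bars, to the right of 0) and lower (blue bars, to the left) in positive cells of each region under 4 scalings of the libraries. The split in the jejunum held members on both sides of 0 under each scaling, from 14 higher and 10 lower with library size alone to 9 higher and 21 lower with nuclear counts. All genes were split there too, with 3338 higher and 2943 lower of 15044 and with 1598 and 5113 of 15168.

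A further 84 genes of the same pathway, of which 83 were tested, were chosen by name for steps next to those above. Of these, 21 were higher and 2 lower (duodenum), 19 and 23 (jejunum), 20 and 5 (ileum) and 11 and 2 (colon), beside shares of all genes of 8.88 and 8.08%, 18.3 and 25.6%, 17.9 and 20.6%, and 9.31 and 3.8%, with median fold changes of 0.42, -0.07, 0.22 and 0.27. In the jejunum both counts were near those shares. The 12 genes of the oligosaccharyltransferase, which attaches glycans to proteins as they enter, were lower in 10 cases in the jejunum, among them Ddost (-1.71 ± 0.37, adjusted p = 0.000407) and Krtcap2 (-2.17 ± 0.47, adjusted p = 0.000397), and 1 in the ileum. Of 8 genes of the signal recognition particle and its receptor, which bring ribosomes to the ER, 1 was higher and 3 lower in the jejunum. The 16 genes of the COPII coat and its helpers were higher in 7, 8, 7 and 4 cases from duodenum to colon, and lower in 0, 1, 1 and 0. Mia3, which helps package large cargo, was higher in all 4 regions by 2.26, 1.67, 1.42 and 1.27, and Sec24a, another cargo-binding subunit, by 0.84, 1.85, 2.04 and 1.03.

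Among 13 further isomerases, chaperones and related ER proteins tested, 4 were higher in the duodenum, 1 was higher and 6 were lower in the jejunum, 3 were higher in the ileum, and 2 were higher and 1 lower in the colon. Agr2, an isomerase needed for mucin folding, was higher in all 4 regions by 4.78, 1.96, 2.70 and 2.04. Of 16 further UPR regulators and stress targets, 4 were higher and 2 lower (duodenum), 5 and 2 (jejunum), 5 and 1 (ileum) and 2 and 1 (colon). Creb3l1, an ER-bound transcription factor, was higher in the duodenum (3.72, adjusted p = 6.011e-10) and the ileum (0.73, adjusted p = 0.0393), and its relative Creb3l4 in the duodenum, ileum and colon by 4.15, 1.80 and 1.40, with 1.01 in the jejunum. Of 10 genes that pull substrates out of the ER, 3, 2, 3 and 2 were higher from duodenum to colon, and of 8 that trim and check glycans, 2, 2, 2 and 1 were, with 0, 1, 1 and 0 lower. Of all genes, 8.88, 18.3, 17.9 and 9.31% were higher and 8.08, 25.6, 20.6 and 3.8% lower from duodenum to colon, and several of these counts lie near those shares, such as 2 of 10 (20%) beside 18.3% for the substrate-pulling genes of the jejunum and 1 of 8 (12.5%) beside 9.31% for the glycan-trimming genes of the colon. The gene lower among the latter was Mogs, the first glucosidase, at -1.61 in the jejunum (adjusted p = 4.593e-05) and -1.94 in the ileum (adjusted p = 5.899e-06).

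Exon length differed between the genes called higher and lower. In the jejunum the median was 5285 bases for the members higher, 3745 for those lower and 3328 for those not called, and over all genes it was 5055, 3810 and 3642. In the ileum it was 4054 for the 20 members higher and 6448 for the 2 lower, and over all genes 4592 and 4077. Over all genes it was 5011 and 3400 in the duodenum and 4969 and 4066 in the colon. With an offset for length and GC content, chosen after seeing the data, members higher and lower numbered 21 and 0 (duodenum), 14 and 17 (jejunum), 19 and 3 (ileum) and 10 and 0 (colon). The part of exon length in the split was not tested further. Over single libraries left out in turn, 44 of the 82 member calls were kept in each fit: 16 of 23 in the duodenum, 16 of 28 in the jejunum, 10 of 22 in the ileum and 2 of 9 in the colon. Lost calls not marked so above were Sec61a1 in the duodenum and Hsp90b1, Canx, Pdia4, Herpud1, Sec11c and Kdelr2 in the jejunum. In the ileum they were Dnajb9, Dnajb11, Trib3, Sec61g, Ssr1 and Kdelr2, and in the colon Syvn1. Of these, Sec61a1 was lost in 5 of 6 fits, and Dnajb9, Trib3, Sec61g, Ssr1 and colonic Syvn1 in 4.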

How the data were processed

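RNA was isolated from sorted cells, and libraries were made from 10 ng of RNA with a stranded total RNA kit and sequenced as single-end reads of 50 bases. The authors used STAR to align the reads to GRCm38 and to count them per gene, and the deposited values are raw counts without normalisation. The submitters' processing notes name STAR 2.5.1 and CASAVA; the annotation and the strand setting of the counting are not given in the sources used here. The table held 53465 genes and 4 summary rows, which held 39.4 to 75.8% of the reads of a library and were left out. The lower limit of detection was taken as 3 counts per library.

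Counts were fitted with edgeR 4.0.16 (R 4.3.3, limma 3.58.1): filterByExpr (minimum count 10, minimum total 15), TMM factors and a quasi-likelihood model with 1 coefficient for each of the 8 groups over all 24 libraries. Sort, region and interaction contrasts were tested with Benjamini-Hochberg adjustment over the 15044 genes that passed. The scripts were tested on simulated counts. Exon lengths for RPKM came from GENCODE M21, which had an entry for 53360 of the gene IDs, and promoters from RefSeq, where 48 members matched, 2 of them by an older symbol.

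The members and all gene lists were chosen with earlier results of these data known. Values in every library are given for Hspa5, Xbp1, Ern1, Ern2, Atf4 and Ddit3 and, in each role, for the member with the smallest joint-test p and the called-lower member with the smallest p. Dnajc10 and Kdelr3 were given values in the text after these had been seen. Alternatives were DESeq2 1.42.0, other scalings and filters, a fit of the compared groups only, the index of the library as a covariate, a threshold of 0.01 and leaving out each library. Offsets for length and GC content, scaling by counts outside the mitochondrial genome and leaving out the 8 libraries numbered 3 were added after seeing the data.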

Additional observations from a re-analysis of the deposited data

Results flagged for a closer look

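For 32 comparisons of a member, the fold change between sorted fractions differed between the duodenum and another region, by edgeR's quasi-likelihood test of the interaction with Benjamini-Hochberg adjustment. Groups held 3 libraries, so no search for single outlying samples was made. The values are log2 differences of the fold changes, duodenum minus the other region.

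Against the jejunum the chaperones concerned were Hsp90b1 (1.34), Calr (1.30), Dnajc10 (2.77), Hyou1 (1.44) and Manf (1.60), and the disulfide genes Pdia3 (1.54), Pdia4 (2.03), Pdia5 (2.38) and Pdia6 (2.67). Calr, Hyou1 and Pdia3 were called in neither region alone after TMM, with positive fold changes in the duodenum and negative ones in the jejunum. With total nuclear counts each of them was lower in the jejunum. The ERAD genes were Edem2 (1.47) and Edem3 (2.04), the UPR genes Ern2 (4.69) and Xbp1 (1.44), and the transport gene Tmed3 (1.87). The translocon genes were Sec61b (1.89), Ssr1 (1.39), Ssr2 (1.84), Ssr3 (1.38) and Ssr4 (1.78), and the signal peptidase genes Spcs2 (1.89), Spcs3 (1.77) and Sec11c (1.88).

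Against the ileum the difference was larger in the duodenum for Dnajc10 (1.95), Pdia5 (2.48), Edem3 (1.88) and Ern2 (3.32) and smaller for Ppp1r15a (-3.04). Against the colon it was larger for Dnajc10 (2.38), Pdia5 (1.88), Edem2 (1.80), Edem3 (2.28) and Ern2 (4.60). Summed goblet markers were also much higher in duodenum positive cells (56190 CPM) than in positive cells of the jejunum (3485), the ileum (6561) and the colon (3216). Summed Paneth markers were 37630 CPM there against 7718, 6857 and 111, and summed enterocyte markers ran the other way against the jejunum and the ileum (1272 against 11360, 6136 and 403). The part of these markers in the differences was not tested.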

How the results depend on the processing

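Depth limits Derl3, Ero1lb, Trib3, Kdelr3, Ern2, Sec61g, Ddit3 and Ppp1r15a, whose lowest libraries held 0 to 13 reads, and 3 libraries per group limit all members. No paired analysis was made, because the labels do not name the mouse and the library numbers follow accession order only. Libraries of the same number may share a mouse, and the part of such sharing in the p-values was not tested. No called fold change of the named members changed sign under any alternative. Members higher in the duodenum (23) numbered 16 to 20 with 1 library left out and 12 with total nuclear counts, which called 5 lower, against 0; without 1 library 0 to 0 were lower. In the jejunum 10 to 14 were higher and 7 to 20 lower with 1 library left out, 7 without the second positive library. In the ileum those higher (20) numbered 12 to 18 with 1 library left out (12 without the third positive one), 11 at an adjusted p under 0.01 and 6 with total nuclear counts. Those lower there (2) numbered 1 with library size alone, 0 without a filter, 4 with at least 10 counts, 0 at 0.01, 13 with total nuclear counts, 0 without the libraries numbered 3, and 0 to 4 with 1 library left out (0 without the second negative, the second positive or the third positive one, 1 without the third negative and 4 without the first negative one). In the colon those higher (9) numbered 4 with library size alone, 5 with at least 10 counts, 3 with the compared groups only, 2 at 0.01, 3 with total nuclear counts, 5 without the libraries numbered 3, and 3 to 8 with 1 library left out (3 without the second positive, 4 without the first positive or the third negative one). Those lower there (0) numbered 1 with at least 10 counts and 0 to 0 with 1 library left out.

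Members with a larger or smaller difference in the duodenum than in the jejunum (22) numbered 6 at 0.01 and 9 to 27 with 1 library left out. Against the ileum (5) they numbered 8 with DESeq2, 9 with library size alone and 4 to 6 with 1 library left out. Against the colon (5) they numbered 10 with DESeq2, 8 with the compared groups only, 3 at 0.01, 3 with total nuclear counts and 3 to 5 with 1 library left out (3 without the first colon positive, second colon negative, or the second or the third duodenum library of either sort). Members that differed between regions in negative cells (5) numbered 8 without a filter, 12 with the library index as a covariate, 3 with the compared groups only, 3 at 0.01, 9 with the length and GC offsets, 9 without the libraries numbered 3, and 3 to 12 with 1 library left out (3 without the second colon negative, 12 without the third ileum negative one). In positive cells they numbered 38 to 42, and in the joint test 32 to 47. The causes were not tested.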
